A study of Xenopus tropicalis with 2 samples.

Results

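The bone morphogenetic protein (BMP) and transforming growth factor beta (TGF-beta) pathway genes described here were chosen by name alone. Taken were gene rows whose deposited name begins with bmp, gdf, tgfb or smad followed by a digit. Names that begin with bmpr, tgfbr, inhb, nodal, acvr, chrd, nog, fst, grem or id1 to id4 were taken as well. Of the 14374 gene rows, 57 matched, and 49 of these had at least 1 unique molecular identifier (UMI, a tag that counts each captured transcript once) in the cells. The cells were pax6:GFP+ tail cells of Xenopus tropicalis tadpoles, sorted by fluorescence and captured for 3′ single cell RNA-Seq with the version 2 chemistry of 10x Genomics. The 24hpa group held regenerated tail tissue taken 24 h after the posterior end of the tail was removed at NF stage 41, 3 days after fertilization, and the uninjured group held tail tips of stage 41 tadpoles. All tadpoles carried the same transgene, with GFP under a pax6 promoter and RFP under cryga and actc1 promoters, so the sort chose cells by GFP made from that promoter fragment and not by pax6 transcript or protein. Tails of many tadpoles were pooled into 1 library per group.

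BMPs and TGF-betas are secreted dimers that bring together a pair of type I and a pair of type II receptors on the cell surface. The type II receptor then phosphorylates the type I receptor, which phosphorylates a receptor Smad, and the Smad enters the nucleus with Smad4. BMP receptors mainly use Smad1, Smad5 and Smad9, and the TGF-beta, activin and nodal receptors mainly use Smad2 and Smad3, while Smad6 and Smad7 inhibit the pathway. Noggin, chordin, gremlin and follistatin bind ligands outside the cell and keep them from their receptors. The Id genes are direct targets of BMP signalling in many cell types, and their proteins bind basic helix-loop-helix factors and keep them off DNA. In the spinal cord BMPs pattern the dorsal side, in the frog embryo their antagonists set up the dorsal axis, and both BMP and TGF-beta signalling are known to be needed for tail regeneration in Xenopus.

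The 24hpa library held 1090 cells and 16094673 UMIs in cells, and the uninjured library held 2617 cells and 26376227 UMIs in cells. Median depth was 10374.5 UMIs per cell at 24hpa and 8289 in the uninjured library, and 1 barcode occurred among the cells of both. Since each group is 1 library, no difference could be checked against replicates and none was tested. Amputation, age, the tissue taken and the library differ together and cannot be told apart. Levels are in CPM, the UMIs of a gene summed over the cells of a cluster per 1000000 UMIs of those cells, and all intervals are exact 95% intervals for counting error only. Clusters and their names are those of the authors and were built on these same counts. The 6 neural and 10 other clusters with at least 20 cells in each library were compared, of 21 in all.

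Several clusters held markers that did not match their label or that differed between the libraries. Cells labelled Dermomyotome were high for the skeletal muscle list, of which 6 of 7 genes were found (210974 CPM at 24hpa and 132689 uninjured), and cells labelled Myotome were low for it (778 and 2405 CPM) but held twist1 at 838 CPM at 24hpa and 1085 CPM uninjured. In the Bipotent Progenitor cluster the endothelial list, with 4 of 5 genes found, summed to 0 CPM at 24hpa and 398 CPM uninjured. In Small Secretory Cell 1 the globin list, with all 4 genes found, summed to 0.844 CPM at 24hpa and 4113 CPM uninjured. Its small secretory list, with 2 of 4 genes found, summed to 10018 CPM at 24hpa and 8124 CPM uninjured. Such clusters are called below by their labels only.

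Among the 49 genes, 35 had at least 100 UMIs over both libraries and 14 had fewer, 9 of them under 10. The 10 BMP and GDF ligands with UMIs included bmp2, bmp3, bmp4, bmp5, bmp6 and bmp7.1 above 100 UMIs. The remaining ligands were rare. For gdf3 there was 1 UMI at 24hpa and 19 in the uninjured library, and bmp7.2, gdf1, gdf5, inhbc.1, nodal and nodal6 had at most 2 UMIs each in either library. No UMI was found for bmp15, gdf9, inhbc.2, nog4, nodal1, nodal2, nodal3.2 or nodal5.2. No gene row matched id1, gdf11, inhbb or tgfb3 under those names, so these are not analysed here. Because the rule works on names, it also took bmp2k, an intracellular kinase induced by BMP2, and tgfbrap1-like and tgfbr3l-like. The intracellular mediator gene smad4.1 had 24 UMIs in each library, chrdl1 had 5 at 24hpa and 12 uninjured, fstl4 had 2 and 7, fstl5 had 14 and 38, acvr1c had 1 in each, tgfbr3l-like had 2 in each and tgfbrap1-like had 8 and 14. Whether genes with related names, such as bmp7.1 and bmp7.2 or the nodal genes, share reads was not examined, and their counts are uncertain in that respect.

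Mesenchyme had the highest CPM of most BMP ligands in both libraries. Bmp4 (Xetrov90021344m.g), a ventral and dorsal neural patterning ligand, was at 452 CPM at 24hpa (392 to 518) and 397 CPM uninjured (344 to 455) in Mesenchyme. Bmp7.1 (Xetrov90027723m.g), a partner of Bmp2 and Bmp4 in heterodimers, was at 541 CPM at 24hpa and 671 CPM uninjured there. For bmp4 and bmp7.1 the next cluster in either library was lower with no overlap of intervals. Bmp2 (Xetrov90013240m.g) was at 128 CPM at 24hpa and 289 CPM uninjured in Mesenchyme, followed in each library by ROC, the regeneration-organizing cells of the tail epidermis, at 67.3 and 208 CPM. The intervals of these neighbours overlapped in the uninjured library (245 to 339 and 176 to 245 CPM). Bmp5 (Xetrov90014272m.g) was at 246 CPM at 24hpa and 86.2 CPM uninjured in Mesenchyme, and the next cluster, Myotome, was at 29.3 and 37.4 CPM.

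Other ligands had other main sources. Bmp3 (Xetrov90001376m.g), known as a ligand that opposes BMP activity, was highest in spinal cord progenitors at 24hpa with 42.8 CPM. In the uninjured library it was highest in the Floor Plate cluster, at 290 CPM over 23 cells, followed by spinal cord progenitors at 43.5 CPM. Floor Plate held 1 cell at 24hpa, so the clusters could not be compared. Tgfb2 (Xetrov90013056m.g) was highest in Mesenchyme (394 CPM at 24hpa and 423 CPM uninjured) and Notochord (326 and 468 CPM), and the intervals of these neighbours overlapped in both libraries. Tgfb1 (Xetrov90021005m.g) was led by Mesenchyme at 24hpa (374 CPM) and by ROC in the uninjured library (321 CPM). In the uninjured library the intervals of ROC and Mesenchyme overlapped. Inhba (Xetrov90016303m.g), which encodes the subunit of activin A, was highest in ROC in both libraries, at 269 CPM at 24hpa (235 to 307) and 57.9 CPM uninjured (41.3 to 78.8).

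**Figure D1:**
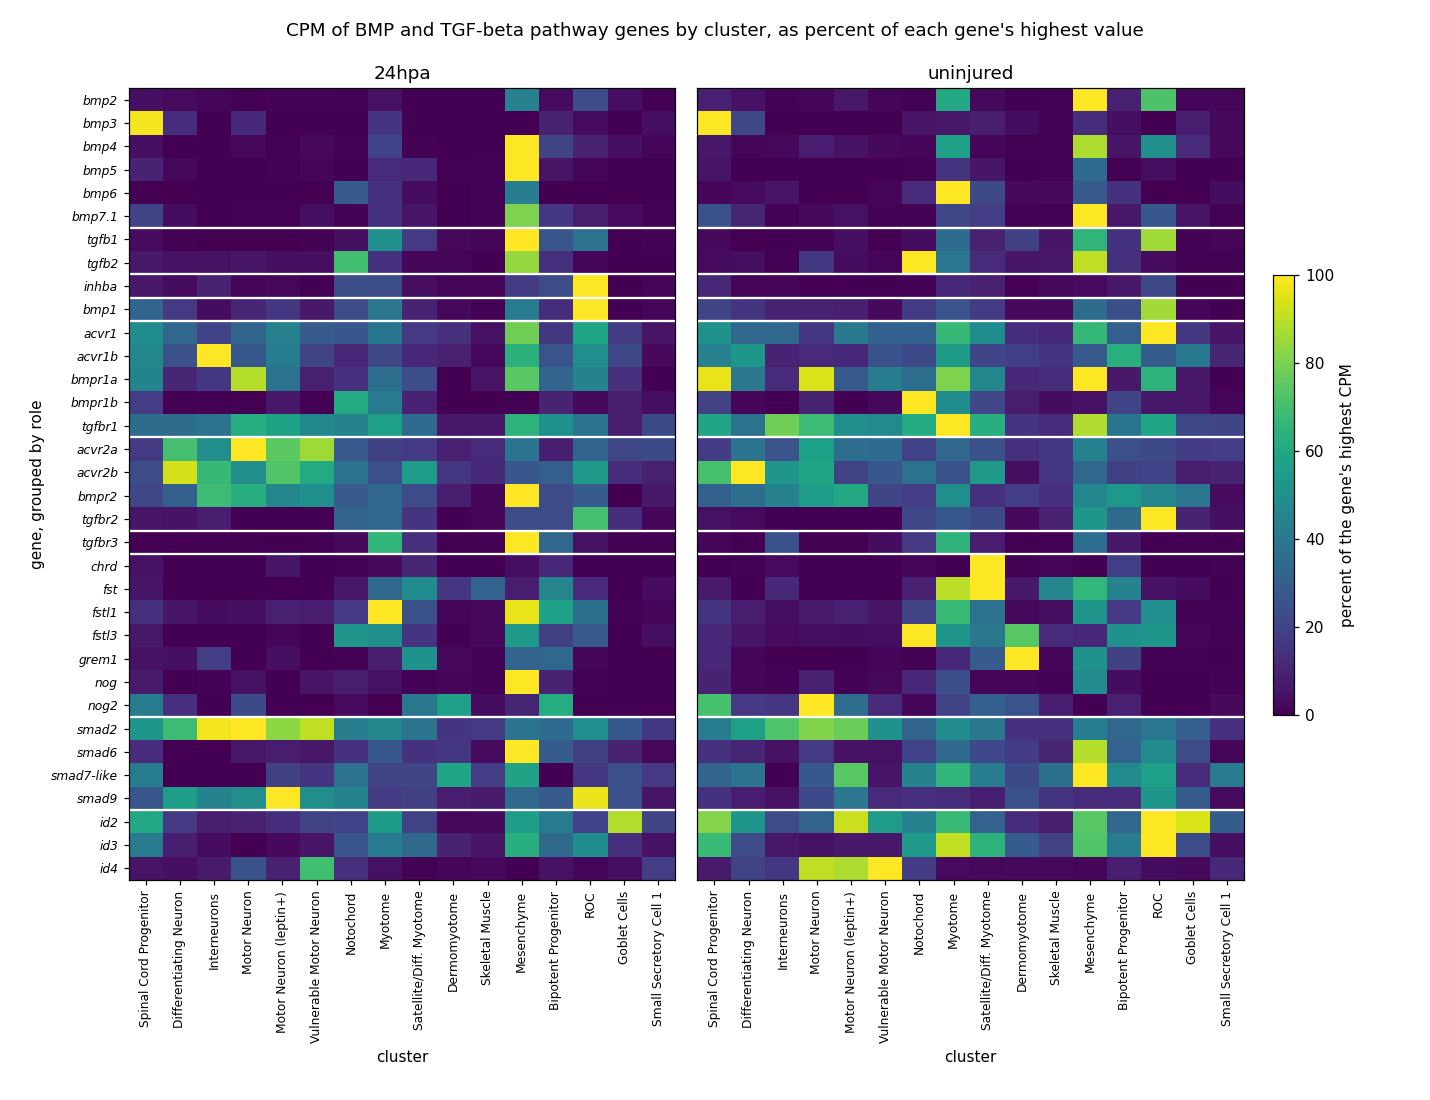
CPM of the 34 pathway genes with at least 100 UMIs (rows, grouped by role; bmp2k left out) in the 16 compared clusters (columns), at 24hpa on the left and in the uninjured library on the right. Colour gives each value as a percentage of that gene's highest CPM over both panels, so rows cannot be compared with each other in level. Bmp2, bmp4, bmp5, bmp7.1 and nog are brightest in Mesenchyme, inhba in ROC and id4 in the motor neuron clusters.

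Several receptor transcripts were found in every cluster. The type I receptor gene tgfbr1 (Xetrov90016346m.g) had UMIs in all 16 clusters with at least 20 cells at 24hpa and in all 20 in the uninjured library, with median levels of 73.2 and 98.0 CPM over them. The gene acvr1 (Xetrov90024381m.g), for a type I receptor of BMPs and activins, was likewise found in every one of these clusters, with medians of 52.8 and 61.3 CPM. The BMP type I receptors differed in place: bmpr1b (Xetrov90001215m.g) was highest in Notochord (27.3 CPM at 24hpa and 44.3 CPM uninjured), whereas bmpr1a (Xetrov90018159m.g) was highest in Motor Neuron at 24hpa (23.8 CPM) and in Mesenchyme in the uninjured library (26.8 CPM), with intervals that overlapped those of the next clusters. For bmpr1b the intervals of Notochord and Myotome overlapped at 24hpa. The activin type II receptor gene acvr2b (Xetrov90015558m.g) was highest in differentiating neurons in both libraries, at 53.9 CPM at 24hpa and 57.7 CPM uninjured, within the intervals of the neighbouring neural clusters. The related acvr2a (Xetrov90024444m.g) was highest in Motor Neuron, at 52.4 and 29.7 CPM, and the BMP type II receptor gene bmpr2 (Xetrov90023952m.g) in Mesenchyme at 24hpa (37.7 CPM) and Motor Neuron (leptin+) in the uninjured library (22.8 CPM), again within the intervals of their neighbours. The gene tgfbr2 (Xetrov90016430m.g), whose product binds TGF-beta itself, was highest at 24hpa in ROC (40.8 CPM) and in the uninjured library in the small unnamed cluster Other 1 (155 CPM over 31 cells).

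The antagonist genes differed in place as well. Nog (Xetrov90025090m.g), which encodes noggin, was highest in Mesenchyme, at 408 CPM at 24hpa and 197 CPM uninjured, and the next clusters were Bipotent Progenitor at 24hpa (39.4 CPM) and Myotome in the uninjured library (97.9 CPM). Chrd (Xetrov90014683m.g), which encodes chordin, had UMIs in 7 of 16 clusters at 24hpa and in 9 of 20 in the uninjured library. In the uninjured library its level in satellite cells and differentiating myotome was 118 CPM, against 21.9 CPM in the next cluster. Fstl1 (Xetrov90028354m.g), a secreted glycoprotein related to follistatin, was highest in the cells labelled Myotome at 1799 CPM at 24hpa and 1219 CPM uninjured, and second in Mesenchyme at 1739 and 941 CPM. Their intervals overlapped at 24hpa. The gene fst (Xetrov90003596m.g), for follistatin itself, stayed at or below 14.0 CPM at 24hpa and 28.9 CPM uninjured in every ranked cluster. It was highest in satellite cells and differentiating myotome in both, with intervals that overlapped those of the next clusters. For grem1 (Xetrov90021720m.g), which encodes gremlin, the highest cluster was satellite cells and differentiating myotome at 24hpa (73.4 CPM) and Dermomyotome in the uninjured library (143 CPM). At 24hpa its top interval overlapped those of the next clusters.

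Among Smads, smad2 (Xetrov90003794m.g) was present in all ranked clusters and highest in the Motor Neuron cluster of both libraries (162 and 131 CPM), where neighbouring neuronal clusters did not differ beyond their intervals. The inhibitory smad6 (Xetrov90009275m.g) was highest in Mesenchyme (75.3 CPM at 24hpa and 67.1 CPM uninjured). In the uninjured library its interval overlapped that of ROC. Smad9 (Xetrov90006652m.g) was highest in the Motor Neuron (leptin+) cluster at 24hpa (76.7 CPM) and in ROC in the uninjured library (40.5 CPM), but in both libraries each of these clusters lay within the interval of the other. The Id genes differed in place, and id4 (Xetrov90016095m.g) was highest in Vulnerable Motor Neuron at 833 CPM at 24hpa (748 to 924) and 1192 CPM uninjured (1130 to 1257). The uninjured interval overlapped those of Motor Neuron (948 to 1217) and Motor Neuron (leptin+) (925 to 1176). Id3 (Xetrov90004815m.g) was highest in Mesenchyme at 24hpa (419 CPM) and in ROC in the uninjured library (670 CPM), and lowest in Motor Neuron at 24hpa, with 0 UMIs. In each library its top interval overlapped that of the next cluster. Id2 (Xetrov90015113m.g) was highest in the cells labelled Goblet at 24hpa (234 CPM) and in Floor Plate in the uninjured library (268 CPM), where ROC and Goblet lay within its interval. At 24hpa the interval of Goblet overlapped that of spinal cord progenitors.

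Over all cells, 6 of 37 pathway genes with at least 30 UMIs were at least 2-fold higher at 24hpa with an interval that excluded equality, and 2 were at least 2-fold lower. These shares are 16.2% and 5.41%, and among all 10839 genes counted by the same rule 7.27% were higher and 10.1% lower. The median log2 ratio of 24hpa over uninjured was -0.09 over the 37 genes and 0.00 over all genes. Among ligands, inhba was at 40.1 CPM at 24hpa (37.0 to 43.3) and 9.14 CPM uninjured (8.02 to 10.4), a log2 ratio of 2.13 (1.92 to 2.35). Bmp5 was at 20.1 CPM at 24hpa and 5.46 CPM uninjured, a log2 ratio of 1.88 (1.59 to 2.17). These ligands gave the largest ratios of the 37 genes.

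Other differences over all cells changed with the makeup of the clusters. Tgfb1 was at 71.2 CPM at 24hpa and 33.1 CPM uninjured (log2 ratio 1.11), fstl1 at 602 and 265 CPM (1.18), and tgfbr3, the co-receptor betaglycan, at 5.03 and 1.93 CPM (1.38). With the clusters weighted to their uninjured makeup the log2 ratios of these genes were -0.20, 0.04 and -0.34. Tgfb2 was lower over all cells, at 64.2 CPM at 24hpa and 135 CPM uninjured (-1.07), and its weighted ratio was -0.55. The cells labelled Myotome, which were high for fstl1, tgfb1 and tgfbr3, numbered 184 of 1090 at 24hpa and 81 of 2617 in the uninjured library, while Notochord, high for tgfb2, numbered 63 and 291. Smad9 (23.0 CPM at 24hpa and 11.2 CPM uninjured, 1.03) and chrd (3.67 and 7.58 CPM, -1.05, and -0.99 without possible doublets) were the other genes past 2-fold.

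The remaining genes stayed under 2-fold over all cells. The Id genes were lower, with id4 at 92.0 CPM at 24hpa and 172 CPM uninjured (-0.90), id2 at 78.0 and 115 CPM (-0.56) and id3 at 176 and 258 CPM (-0.55). Among ligands bmp2 was at 11.7 CPM at 24hpa and 21.8 CPM uninjured (-0.90), bmp3 at 5.03 and 8.68 CPM (-0.79), bmp4 at 38.5 and 30.9 CPM (0.32) and bmp7.1 at 59.1 and 55.8 CPM (0.08). Receptor genes moved little: tgfbr1 was at 73.6 CPM at 24hpa and 84.2 CPM uninjured (-0.19), acvr2b at 19.7 and 20.5 CPM (-0.06), and bmpr2 at 10.0 and 8.95 CPM (0.16), the last 2 with intervals that included 0. The BMP type I receptor genes bmpr1b and bmpr1a were lower, at -0.71 and -0.52. The gene acvr1, for a further type I receptor of BMPs, had more UMIs than either (864 at 24hpa and 1526 uninjured) and stayed under 2-fold too. Of the antagonists, fst was at 5.96 CPM at 24hpa and 5.95 CPM uninjured (interval -0.38 to 0.38 on the log2 scale), nog at 23.5 and 25.0 CPM (-0.09), grem1 at 17.5 and 18.8 CPM (-0.11) and fstl3 at 25.1 and 44.6 CPM (-0.83). The inhibitory smad7-like was at 3.73 CPM at 24hpa and 5.88 CPM uninjured (-0.66). With the clusters weighted to their uninjured makeup, bmp2, fstl3 and grem1 were lower past 2-fold, at -1.49, -1.13 and -1.11.

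In neural cells 2 of 31 genes were at least 2-fold higher and 4 at least 2-fold lower, where 7.96% and 7.69% of all 8991 genes were. Smad9, a receptor Smad of BMP signalling, was at 41.0 CPM at 24hpa (34.3 to 48.6) and 9.67 CPM uninjured (7.46 to 12.3), a log2 ratio of 2.08 (1.65 to 2.53). Its share of positive neural cells was 30.2% of 295 cells at 24hpa (25.0 to 35.8) and 7.18% of 780 uninjured cells (5.47 to 9.22), and with each cell thinned to 2600 UMIs 11.6% and 2.31%. In Small Secretory Cell 1, where smad9 was near its lowest, 3.42% of 146 cells at 24hpa and 1.28% of 313 uninjured cells had a smad9 UMI, with median depths of 6282.5 and 4885 UMIs beside 8473 and 7353 in neural cells. Among compared neural clusters smad9 had at least 30 UMIs only in spinal cord progenitors and the leptin+ cluster. Its log2 ratio in progenitors was 0.89, under 2-fold, and 1.00 without possible doublets. In the leptin+ cluster it was at 76.7 CPM at 24hpa and 30.4 CPM uninjured. That cluster held 68 of the 295 neural cells at 24hpa and 27 of the 780 uninjured. Free RNA, from barcodes not called as cells, held smad9 at 22.2 CPM at 24hpa and 4.77 CPM uninjured. With free RNA subtracted the neural ratio was 2.07. This took at most 185 UMIs per cell at 24hpa and 260 uninjured, the median of the free RNA barcodes. It was small beside the depth of these cells, and the part of free RNA in the ratio was not tested. Bmp5 was at 10.7 CPM at 24hpa and 4.91 CPM uninjured, from 35 and 33 UMIs (1.13, interval 0.40 to 1.86). The lower genes were id4 (188 CPM at 24hpa and 389 CPM uninjured, -1.05), bmp2 (7.04 and 15.3 CPM, -1.12), the follistatin-like fstl3 (3.37 and 8.77 CPM, -1.38) and the noggin paralog nog2 (3.98 and 8.62 CPM, -1.12). Id2 and id3 lay just short of 2-fold, with log2 ratios of -0.97 and -0.91 and intervals below 0, and passed it with TMM scaling (-1.08 and -1.02). Without the leptin+ motor neurons id4, bmp2 and nog2 stayed under 2-fold (-0.79, -0.90 and -0.78), as did bmp2 (-0.95) and id4 (-0.95) when weighted to the uninjured makeup. Smad9 and bmp5 remained higher past 2-fold in both of these settings. Averaging CPM over cells put bmp5 at 0.93 and id4 at -0.72.

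**Figure D2:**
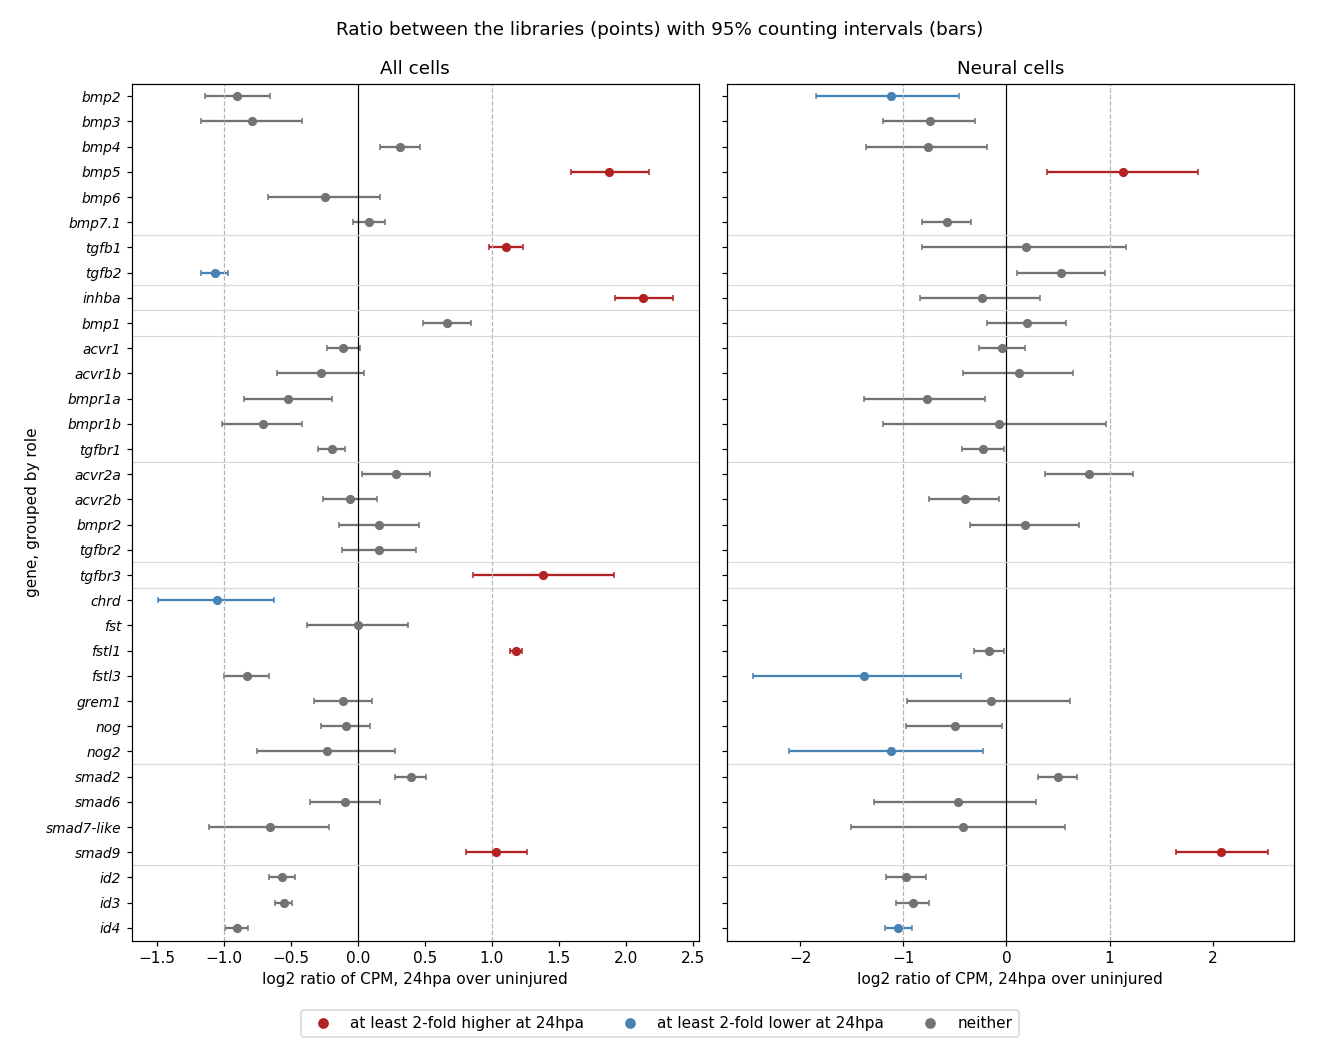
Log2 ratio of CPM at 24hpa over uninjured (x axis) for each pathway gene with at least 30 UMIs, over all cells on the left and neural cells on the right. Bars are 95% counting intervals and dashed lines mark 2-fold. Inhba (2.13) and bmp5 (1.88) stand farthest to the right over all cells, and smad9 (2.08) in neural cells, while id2, id3 and id4 lie to the left of 0 in both panels.

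Within clusters, 242 pairs of a pathway gene and a cluster had at least 30 UMIs, and 35 genes contributed at least 1 pair. Of these pairs 18 were at least 2-fold higher at 24hpa and 61 at least 2-fold lower. The shares are 7.44% and 25.2%, and over all genes in the same clusters they were 7.99% and 12.9%. Pairs of the same gene or cluster share cells, so they are not independent. The 3 Id genes gave 19 of the 61 lower pairs from 42 tested, and the remaining genes gave 42 of 200 (21%).

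**Figure D3:**
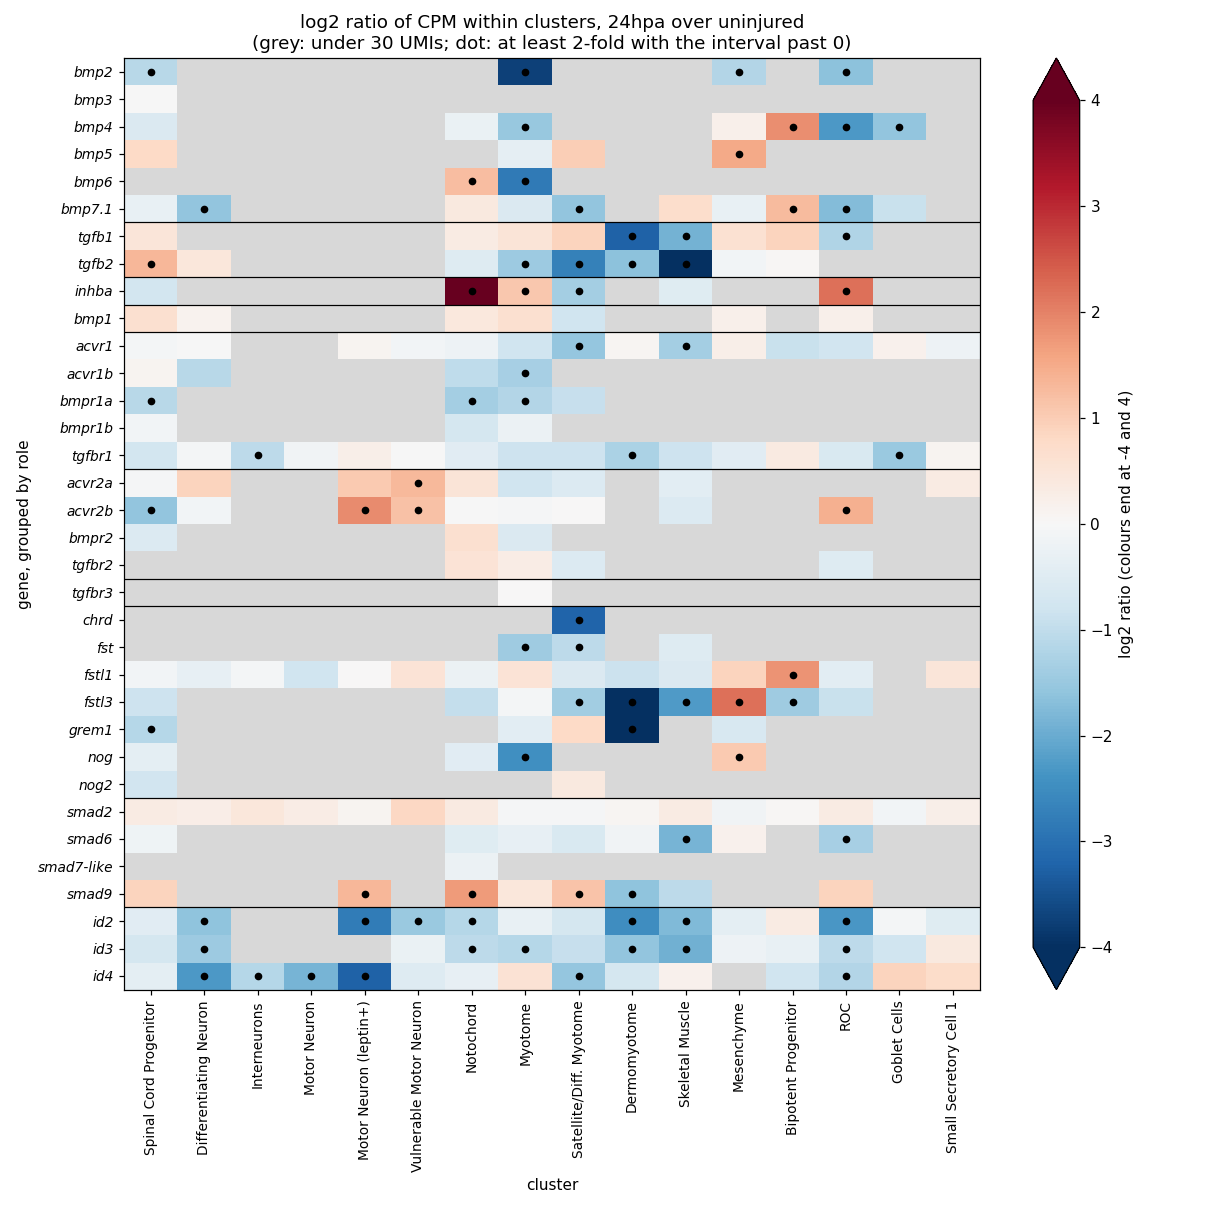
Log2 ratio of CPM at 24hpa over uninjured for each pathway gene (rows, grouped by role) in each of the 16 compared clusters (columns), from blue (lower at 24hpa) to red (higher at 24hpa). Grey cells had under 30 UMIs and dots mark ratios of at least 2-fold with an interval past 0; fstl3 in Dermomyotome, with 0 UMIs at 24hpa, is drawn at its bound of -4.24. The id2, id3 and id4 rows at the bottom are mostly blue, and the darkest red square is inhba in Notochord (4.88).

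No Id gene was at least 2-fold higher at 24hpa in any compared cluster, and each had a ratio below 0 in most. Id2 was lower past 2-fold in 7 of 14 clusters tested and had an interval below 0 in 11. Id3 was lower past 2-fold in 6 of 13 clusters, with an interval below 0 in 9, and id4 in 6 of 15, also with 9 below 0. Over all genes 12.9% of pairs in the compared clusters were lower past 2-fold. The id3 calls in Myotome, Dermomyotome, Skeletal Muscle and ROC were lost under some alternatives of processing. So were the id4 calls in Interneurons, in satellite cells and differentiating myotome, and in ROC. The only Id interval above 0 was that of id4 in Small Secretory Cell 1, at 218 CPM at 24hpa and 131 CPM uninjured (log2 ratio 0.73, 0.47 to 0.99), where the globin list differed as given above. The part of that difference in the id4 value was not tested. The highest Id ratio was that of id4 in the cells labelled Goblet, at 0.89 with an interval that included 0. With free RNA subtracted, a setting without an interval, it passed 2-fold there, at 1.19.

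The widest Id differences were in the Motor Neuron (leptin+) cluster. There id4 was at 110 CPM at 24hpa (86.6 to 138) and 1044 CPM uninjured (925 to 1176), a log2 ratio of -3.25 (-3.63 to -2.88). It was detected in 31 of 68 cells at 24hpa and in all 27 uninjured cells, and with cells thinned to 2600 UMIs in 21.9% and 85.8%. In Mesenchyme, where id4 was lowest, 2 of 32 cells at 24hpa and 6 of 48 uninjured cells had a UMI of it. Id2 in the same cluster was at 34.7 CPM at 24hpa and 243 CPM uninjured (-2.81). In the Motor Neuron cluster id4 was at 295 CPM at 24hpa (226 to 378) and 1076 CPM uninjured (948 to 1217), a log2 ratio of -1.87. Vulnerable Motor Neuron had id4 closer to its uninjured level, at 833 and 1192 CPM (-0.52, -0.69 to -0.35), while its id2 was at 51.9 CPM at 24hpa and 147 CPM uninjured (-1.50).

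The content of these neuronal clusters also differed between the libraries. In the Motor Neuron cluster the interneuron list (4 of 4 genes found, pax2 at 0 in both libraries) summed to 2394 CPM at 24hpa and 25.4 CPM uninjured. The motor neuron list, with 3 of 4 genes found, summed to 424 CPM at 24hpa, with isl1 at 0, and to 1258 CPM uninjured. In the leptin+ cluster the leptin receptor gene lepr was detected in 37 of 68 cells at 24hpa and in 0 of 27 uninjured cells. The marker content of these clusters thus differed between the libraries, and the part of this in the id4 and id2 ratios was not tested. In the coarser clustering of all cells, the cluster that joins vulnerable and leptin motor neurons had id4 at 385 CPM at 24hpa and 1243 CPM uninjured. In the neural clustering the leptin+ cells numbered 68 at 24hpa and 27 uninjured, and the vulnerable cells 56 and 164. The joined value therefore also carries this difference in makeup. Its uninjured value lay above those of both neural clusters (1192 and 1044 CPM), so it did not hold exactly their cells.

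Differentiating neurons had all 3 Id genes lower past 2-fold: id4 at 48.2 CPM at 24hpa and 236 CPM uninjured (-2.29), id2 at 45.4 and 139 CPM (-1.61) and id3 at 56.7 and 157 CPM (-1.46). They made 3 of the 4 lower genes of 13 tested in this cluster, where 8.68% of all genes were lower. Bmp7.1, at 22.7 CPM at 24hpa and 68.3 CPM uninjured from 8 and 116 UMIs (-1.59), was the other. None was higher past 2-fold, as were 5.81% of all genes. The neural progenitor list (5 of 5 genes found, none at 0) summed to 616 CPM at 24hpa and 1567 CPM uninjured in this cluster, and the neuron list (5 of 6 found, none at 0) to 6258 and 3552 CPM. The part of that shift in the Id ratios was not tested.

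Spinal cord progenitors held the Id genes nearer to the uninjured level. Id3 was at 277 CPM at 24hpa (248 to 308) and 452 CPM uninjured (426 to 480), id2 at 157 and 215 CPM, and id4 at 64.6 and 84.5 CPM, with log2 ratios of -0.71, -0.45 and -0.39. All 3 intervals lay below 0 and none reached 2-fold. In these cells 1 of 28 genes was higher past 2-fold and 4 were lower, where 5.37% and 8.14% of all genes were. Tgfb2 was the higher one, at 32.3 CPM at 24hpa (23.1 to 44.0) against 8.81 to 18.4 CPM as the uninjured interval, from 40 and 31 UMIs, a log2 ratio of 1.32. The lower ones were acvr2b (13.7 and 41.0 CPM, -1.58), bmpr1a (12.1 and 25.9 CPM, -1.10), bmp2 (12.1 and 25.9 CPM, -1.10) and the antagonist gene grem1 (7.26 and 15.9 CPM, -1.13), of which bmpr1a fell just short without possible doublets (-0.99). The ligand gene bmp3, found mainly in progenitors and floor plate, was level at 42.8 CPM at 24hpa and 43.5 CPM uninjured, with an interval of -0.53 to 0.47 for the log2 ratio. Median depth in progenitors was 14090 UMIs per cell at 24hpa and 7739 uninjured. The neural progenitor list summed there to 2156 CPM at 24hpa and 2704 CPM uninjured, and the differentiating neuron list to 82.3 and 276 CPM. The part of these differences in the ratios was not tested.

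**Figure D4:**
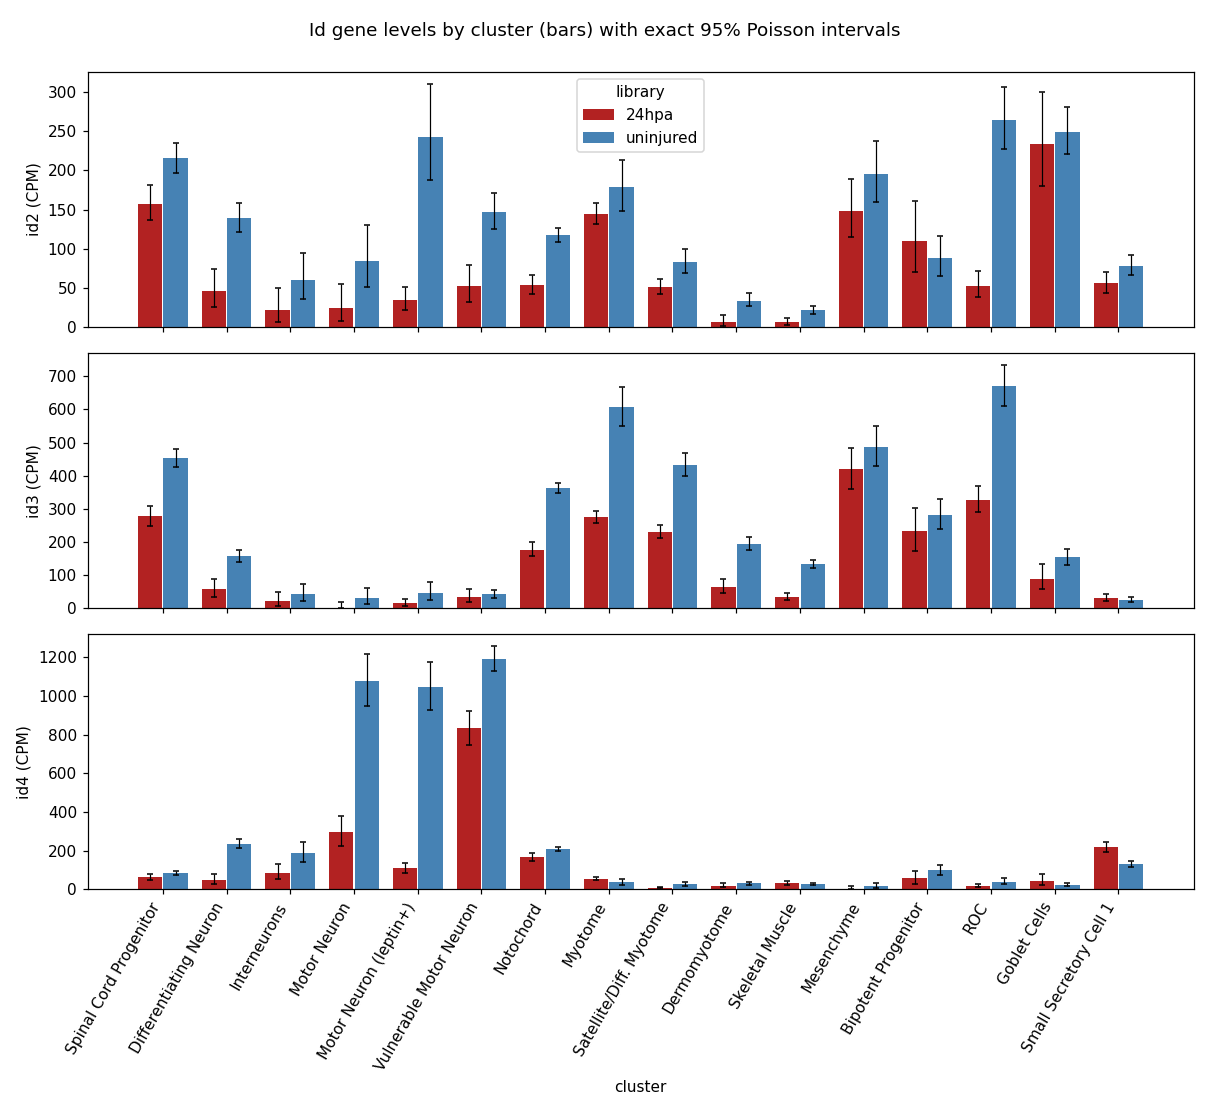
CPM of id2, id3 and id4 (y axis, from 0) in the 16 compared clusters, at 24hpa (red) and in the uninjured library (blue), with exact 95% Poisson intervals. The id4 bars of Motor Neuron (295 and 1076 CPM) and Motor Neuron (leptin+) (110 and 1044 CPM) differ most, and the id2 bars of ROC stand at 52.9 and 265 CPM.

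The type II receptor genes acvr2a and acvr2b were higher in some motor neuron clusters. Acvr2b in the Motor Neuron (leptin+) cluster was at 42.0 CPM at 24hpa and 11.4 CPM uninjured, from 29 and 3 UMIs (1.88, 0.19 to 4.24). In Vulnerable Motor Neuron acvr2b was at 35.4 CPM at 24hpa and 15.6 CPM uninjured (1.18), and acvr2a at 44.8 and 18.2 CPM (1.30). With smad9 at 76.7 CPM at 24hpa and 30.4 CPM uninjured in the leptin+ cluster (1.34), these were the only genes higher past 2-fold in the compared neuronal clusters. That is 2 of 9 in the leptin+ cluster, 2 of 9 in Vulnerable Motor Neuron, and none in Interneurons, Motor Neuron or differentiating neurons. All genes passed at 18.1% and 11.1% in the leptin+ and vulnerable clusters. The lower counts were 2 of 9 in the leptin+ cluster (7.04% of all genes), 1 of 9 in Vulnerable Motor Neuron (4.79%), 1 of 4 in Motor Neuron (6.86%) and 2 of 4 in Interneurons (4.23%), where id4 was at 86.1 and 190 CPM and tgfbr1 at 73.2 and 150 CPM. In Interneurons the interneuron list summed to 6499 CPM at 24hpa, of which pnoc made up 6189 CPM, and to 762 CPM uninjured, with pax2 at 0 in both. The neural progenitor list (5 of 5 genes found, none at 0) summed there to 86.1 CPM at 24hpa and 662 CPM uninjured, and the part of neither in these ratios was tested. The call of id4 in Interneurons did not hold with the mean of CPM per cell (-0.51), nor that of acvr2b in Vulnerable Motor Neuron with TMM scaling (0.91). In Motor Neuron and Interneurons 11% and 8.33% of all genes were higher.

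In ROC, the ligand genes moved in opposite directions. Inhba was at 269 CPM at 24hpa and 57.9 CPM uninjured, a log2 ratio of 2.22 (1.73 to 2.74), and was detected in 66 of 83 cells at 24hpa and 22 of 88 uninjured cells. Bmp4 was at 45.6 CPM at 24hpa (32.3 to 62.7) and 226 CPM uninjured (192 to 264), a log2 ratio of -2.31. Bmp7.1 (54.1 and 181 CPM, -1.74), bmp2 (67.3 and 208 CPM, -1.63) and tgfb1 (141 and 321 CPM, -1.19) were lower as well, so that 4 ligand genes were lower beside 1 that was higher. Further down the pathway id2 was at 52.9 CPM at 24hpa and 265 CPM uninjured (-2.32), id3 at 327 and 670 CPM (-1.04), id4 at 18.0 and 40.5 CPM (-1.17), and smad6 at 14.4 and 36.2 CPM (-1.33). The ratios of id3 and id4 were -0.70 and -0.58, under 2-fold, when CPM was averaged over cells.

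Over the 18 genes tested in ROC, 8 were lower and 2 higher past 2-fold, where 18.2% and 13.5% of all genes were. The other higher gene was acvr2b, at 31.2 CPM at 24hpa and 11.6 CPM uninjured from 26 and 8 UMIs (1.43), whose interval reached 0 without possible doublets (1.30). Without possible doublets 6 genes were lower and 1 higher, with id3 at -0.94 and id4 at -0.86. TMM scaling gave 7 lower, with id3 at -0.99. Median depth was close, at 6342 UMIs per cell at 24hpa and 6151.5 uninjured. The epidermal list (5 of 5 genes found, none at 0) summed to 2179 CPM at 24hpa and 4762 CPM uninjured, with tp63 at 108 CPM in the 24hpa library and 109 CPM in the uninjured one. The mesenchyme list summed in ROC to 5583 CPM at 24hpa and 7070 CPM uninjured, above its sums of 4987 and 3951 CPM in Mesenchyme. The small secretory list (2 of 4 found) summed in ROC to 6167 and 13044 CPM. The part of these marker differences in the ROC ratios was not tested.

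Notochord was the other cluster where inhba stood out. It was at 64.1 CPM at 24hpa (52.2 to 77.9) and 2.18 CPM uninjured (1.16 to 3.73), from 101 and 13 UMIs, a log2 ratio of 4.88 (4.04 to 5.83). Of the notochord cells, 26 of 63 at 24hpa (41.3%) and 8 of 291 uninjured (2.75%) had an inhba UMI, and with cells thinned to 2600 UMIs 19.2% and 0.61% had. Free RNA, taken from barcodes with 100 to 500 UMIs that were not called as cells, held inhba at 72.6 CPM at 24hpa and 4.71 CPM uninjured, so that the inhba level of notochord cells lay below that of free RNA in both libraries. With free RNA subtracted the notochord ratio was 4.90, that of ROC was 2.19 and that of Myotome, given further on, was 1.03. That subtraction took at most 185 UMIs per cell at 24hpa and 260 uninjured, beside median depths of 18882 and 19115 UMIs in Notochord. It could therefore move these ratios little, and the part of free RNA in them was not tested. At 24hpa 0 of 56 Vulnerable Motor Neuron cells and 0 of 21 Goblet cells had an inhba UMI. With 3 cells in place of 0, a rough limit and not an exact interval, shares of cells with a UMI could reach 5.36% and 14.3%. Median depths were 6711 and 10599 UMIs beside 18882 in Notochord. No limit is set on cells that express the gene.

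Of 27 genes tested in Notochord 3 were higher and 3 lower past 2-fold, where 9.89% and 10.8% of all genes were. Beside inhba, the higher genes were smad9 at 34.3 CPM at 24hpa and 10.6 CPM uninjured (1.70) and bmp6 at 17.8 and 7.56 CPM (1.23). The lower genes were id2 at 53.3 and 118 CPM (-1.14), id3 at 176 and 362 CPM (-1.04) and bmpr1a at 3.81 and 9.74 CPM from 6 and 58 UMIs (-1.35). The notochord list (5 of 6 genes found, none at 0, with nog itself one of them) summed to 22317 CPM at 24hpa and 33542 CPM uninjured. The gene otos, of the goblet list, was at 1516 CPM at 24hpa and 11534 CPM uninjured. Neither was tested for its part in these ratios.

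**Figure D5:**
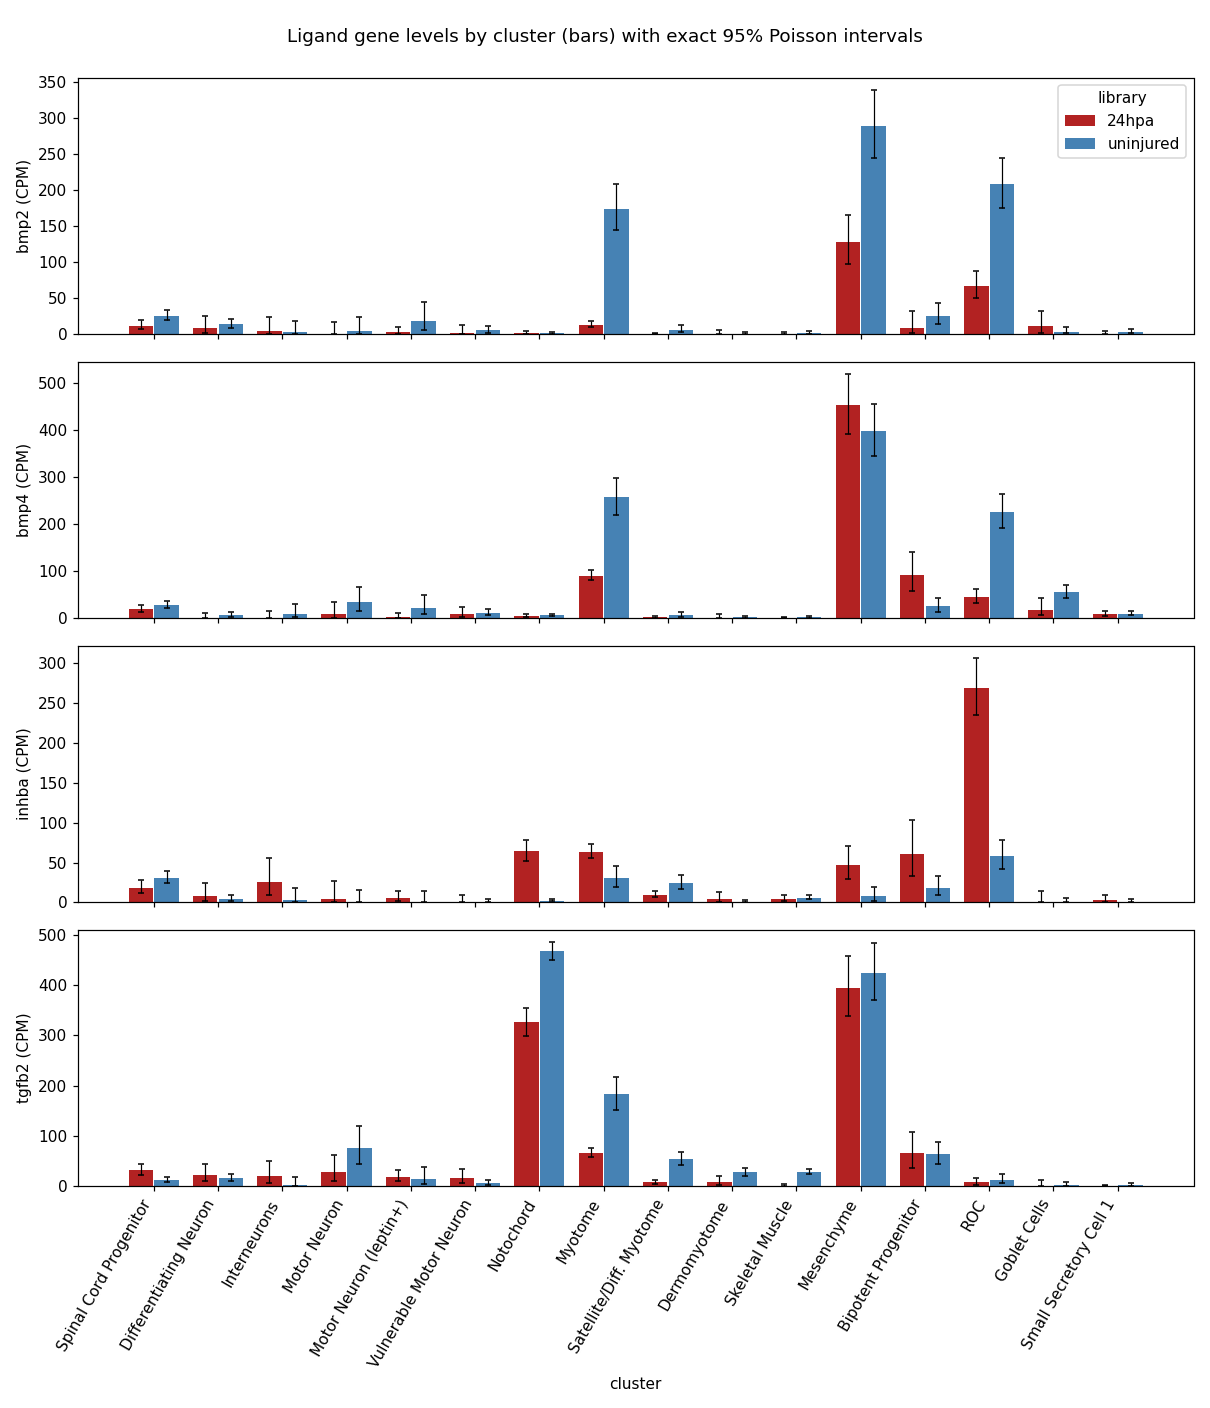
CPM of the ligand genes bmp2, bmp4, inhba and tgfb2 (y axes, from 0, each with its own scale) in the 16 compared clusters, at 24hpa (red) and in the uninjured library (blue), with exact 95% Poisson intervals for counting error. Inhba stands at 269 CPM at 24hpa and 57.9 CPM uninjured in ROC and at 64.1 and 2.18 CPM in Notochord, while bmp2 in the cells labelled Myotome stands at 13.1 and 174 CPM.

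In the cells labelled Myotome several BMP ligand genes and the antagonist genes nog and fst were lower. Bmp2 was at 13.1 CPM at 24hpa (9.45 to 17.7) and 174 CPM uninjured (145 to 208), a log2 ratio of -3.73. Bmp6 was at 8.74 CPM at 24hpa and 61.9 CPM uninjured (-2.83), bmp4 at 90.5 and 256 CPM (-1.50), and tgfb2 at 66.5 and 183 CPM (-1.46). Nog was at 17.8 CPM at 24hpa and 97.9 CPM uninjured (-2.46), and fst at 9.68 and 25.9 CPM (-1.42). These were 2 of 5 antagonist and follistatin family genes tested, of which fstl1 was at 1799 CPM at 24hpa and 1219 CPM uninjured (0.56). Mostly through fstl1 the family summed to 1898 CPM at 24hpa and 1424 CPM uninjured. Id3 (276 and 608 CPM, -1.14), bmpr1a and acvr1b were lower past 2-fold as well, while inhba was higher, at 63.7 CPM at 24hpa and 30.2 CPM uninjured (1.07). The calls of id3 (-0.95) and bmpr1a (-0.97) did not hold with TMM scaling, nor that of fst with the mean of CPM per cell (-0.76).

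This is 9 lower and 1 higher of 31 genes tested in the Myotome cluster, where 9.19% and 8.23% of all genes were. Median depth was 17295.5 UMIs per cell at 24hpa and 8432 uninjured. The skeletal muscle list was at 778 CPM at 24hpa and 2405 CPM uninjured, with myh4 at 0 in the uninjured library. The notochord list summed to 9106 and 3699 CPM, with shh at 0 in both. The part of these differences in the ratios was not tested.

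Satellite cells and differentiating myotome held most of the chordin transcripts. Here chrd was at 12.8 CPM at 24hpa (8.78 to 18.1) and 118 CPM uninjured (101 to 138), a log2 ratio of -3.20 (-3.80 to -2.65), with UMIs in 11 of 105 and 49 of 141 cells. In ROC, whose cells were shallower, 0 of 83 and 0 of 88 cells had a chrd UMI. With 3 cells in place of 0, a rough limit, shares of cells with a UMI could reach 3.61% and 3.41%. Without the cell with most chrd UMIs in each library the log2 ratio was -3.89. Tgfb2 (8.42 and 54.8 CPM, -2.70), bmp7.1 (40.9 and 123 CPM, -1.58), acvr1 (31.3 and 92.4 CPM, -1.56), id4 (9.22 and 26.7 CPM, -1.53), fstl3 (17.6 and 46.2 CPM, -1.39), inhba (9.63 and 24.5 CPM, -1.35) and fst (14.0 and 28.9 CPM, -1.04) were lower too. The antagonist gene grem1 went the other way, at 73.4 CPM at 24hpa and 41.8 CPM uninjured (0.81, 0.38 to 1.26), without reaching 2-fold unless TMM scaling was used (1.13), and smad9 reached it, at 14.4 and 6.49 CPM (1.15). The calls of fst (-0.61), smad9 (0.90) and id4 (-0.67) did not hold with the mean of CPM per cell. In this cluster 8 of 24 genes were lower and 1 higher, and 16.7% and 6.75% of all genes were. TMM scaling gave 7 lower and 4 higher, with bmp5 (1.30), tgfb1 and grem1 added and fst (-0.72) lost. The skeletal muscle list (6 of 7 genes found, none at 0) summed to 930 CPM at 24hpa and 4184 CPM uninjured, and median depth was 23549 and 9345 UMIs per cell. Neither was tested for its part in the ratios.

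In the muscle clusters most pathway genes that differed were lower, as were many genes of all kinds. Dermomyotome had 8 of 13 genes lower and 0 higher past 2-fold, where 28.6% and 3.15% of all genes were, and Skeletal Muscle 7 of 17 lower and 0 higher, where 29.5% and 5.92% were. The all-gene medians of the log2 ratio were -0.61 and -0.50 in these clusters. In Dermomyotome grem1 was at 3.03 CPM at 24hpa and 143 CPM uninjured, from 2 and 292 UMIs (-5.56, -8.62 to -3.70), and its ratio stayed below 0 without possible doublets. There fstl3 had 0 UMIs at 24hpa and 175 uninjured (85.9 CPM), so that with 3 UMIs over the cluster as the floor its log2 ratio was -4.24 or lower. Tgfb1 was at 7.57 CPM at 24hpa and 70.7 CPM uninjured (-3.22). In Skeletal Muscle tgfb2 was at 0.702 CPM at 24hpa and 29.4 CPM uninjured, from 1 and 119 UMIs (-5.39, -10.71 to -2.88), and id3 at 35.1 and 133 CPM (-1.92). The calls of id3 in Dermomyotome (-0.51) and Skeletal Muscle (-0.93), of tgfbr1 in Dermomyotome (-0.08) and of acvr1 in Skeletal Muscle (-0.61) did not hold with the mean of CPM per cell. With TMM scaling 5 genes were lower in Dermomyotome, where tgfbr1 was at -0.82 and the intervals of tgfb2 and smad9 reached 0, and 6 in Skeletal Muscle, where that of smad6 did. Without possible doublets 5 were lower in Dermomyotome. The muscle list summed to 210974 CPM at 24hpa and 132689 CPM uninjured in Dermomyotome and to 110723 and 62925 CPM in Skeletal Muscle, so that muscle transcripts took a larger share of the total at 24hpa. The part of this in the ratios was not tested.

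Most ligand genes of Mesenchyme stayed within 2-fold. Bmp4, bmp7.1 and tgfb2 had log2 ratios of 0.19, -0.31 and -0.10 there. Bmp5 was at 246 CPM at 24hpa (202 to 296) and 86.2 CPM uninjured (62.9 to 115), a log2 ratio of 1.51, and bmp2 was lower at 128 and 289 CPM (-1.17). Among antagonists nog was at 408 CPM at 24hpa and 197 CPM uninjured (1.05, 0.69 to 1.41), and fstl3 at 62.0 and 13.4 CPM from 28 and 7 UMIs (2.21), with that of nog at 0.96 under TMM scaling. This makes 3 higher and 1 lower of 17 genes, where 8.19% and 5.94% of all genes were.

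In the Bipotent Progenitor cluster bmp4 was at 91.9 CPM at 24hpa and 25.5 CPM uninjured (1.85), bmp7.1 at 105 and 43.8 CPM (1.26) and fstl1 at 1028 and 295 CPM (1.80), and fstl3 was lower at 21.9 and 58.4 CPM (-1.42). These were 3 higher and 1 lower of 12 genes, where 12.4% and 15% of all genes were. Without possible doublets the intervals of bmp4 (1.11) and fstl3 (-1.37) reached 0, leaving 2 higher and 0 lower. The mesenchyme list (4 of 5 genes found, none at 0) summed there to 1960 CPM at 24hpa and 474 CPM uninjured, beside the endothelial list given above. The skeletal muscle list was the largest of those given here, at 25427 CPM at 24hpa and 46654 CPM uninjured. The notochord list summed to 3063 and 4662 CPM and the neuron list to 1667 and 602 CPM. The part of these lists in the ratios was not tested. Among cells labelled Goblet 2 of 8 genes were lower and 0 higher, where 14.3% and 3.52% of all genes were: bmp4 at 18.6 CPM at 24hpa and 55.7 CPM uninjured (-1.58), and tgfbr1 at 14.9 and 41.7 CPM (-1.49), whose interval reached 0 with TMM scaling. The goblet list (2 of 3 genes found, otos at 0 at 24hpa) summed there to 4824 CPM at 24hpa and 19658 CPM uninjured, the small secretory list (2 of 4 found) to 18628 and 9795 CPM, and median depth was 10599 and 5584 UMIs per cell. Their part in these ratios was not tested. In Small Secretory Cell 1 none of 8 genes reached 2-fold in either direction, where 2.18% of all genes were higher and 11.6% lower.

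Read by gene across clusters, bmp2 was lower past 2-fold in all 4 clusters where it was tested, with log2 ratios between -3.73 and -1.10. Bmpr1a was lower past 2-fold in 3 of 4. Tgfbr1 was tested in 16 clusters, lower past 2-fold in 3 and with an interval below 0 in 9, and higher past 2-fold in none. Smad2, which transmits the TGF-beta and activin signal, was tested in all 16 clusters as well, with log2 ratios between -0.15 and 0.84 and none past 2-fold. Bmp1, the protease that cleaves chordin, was past 2-fold in none of 7 clusters. Fstl1, tested in 15 clusters, was past 2-fold only in Bipotent Progenitor, although it was past 2-fold over all cells.

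Of 48 further pathway genes listed as extracellular modulators, feedback regulators or targets, 33 were found. Over all cells 26 were tested, of which 6 were higher and 4 lower past 2-fold, where 7.27% and 10.1% of all genes were. The higher ones included bgn, encoding the matrix proteoglycan biglycan, at 256 CPM at 24hpa and 64.6 CPM uninjured (1.98). The cells labelled Myotome, a larger share of the 24hpa library, held 3602 of the 4113 bgn UMIs at 24hpa, and within them bgn was at 1124 CPM at 24hpa and 1355 CPM uninjured (-0.27). Bgn was lower past 2-fold in satellite cells and differentiating myotome, Dermomyotome and Skeletal Muscle and higher in Notochord and Bipotent Progenitor. Another gene higher over all cells was ltbp3, whose protein holds latent TGF-beta, at 61.4 and 25.4 CPM (1.28). The lower ones were lefty, the nodal antagonist, with 1 UMI at 24hpa and 227 uninjured, ctgf at 229 and 704 CPM (-1.62), and the homeobox genes ventx2.1 (-1.83) and ventx2.2 (-2.20), which are BMP targets in the frog embryo. In Notochord lefty had 0 UMIs at 24hpa and 200 uninjured.

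In spinal cord progenitors 14 of these further genes were tested, 2 higher and 4 lower past 2-fold, where 5.37% and 8.14% of all genes were. All 4 lower ones encode homeobox factors known as BMP targets in the frog embryo. The list was chosen with earlier results of these data known, and msx1, msx2 and ventx genes were put on it by choice. Their shared role is therefore not an independent finding. Msx1 was at 23.4 CPM at 24hpa and 48.9 CPM uninjured (-1.06), and msx2 had 2 and 31 UMIs (-3.01). Ventx2.1 had 0 UMIs at 24hpa and 42 uninjured, and ventx2.2 had 0 and 58. As related copies these genes may share reads, so they may not be separate observations. The Id genes stayed under 2-fold in these cells, as given above. Depth and marker content of the cluster also differed between the libraries, as given above, and their part in these ratios was not tested. Over all cells msx1 was at -0.47 and msx2 at 0.24. The higher ones were htra1, a secreted protease, at 23.4 CPM at 24hpa and 2.93 CPM uninjured from 29 and 7 UMIs (3.00), and ltbp3 at 24.2 and 10.5 CPM (1.21). Pmepa1, a target and inhibitor of TGF-beta signalling, was higher past 2-fold in ROC and Motor Neuron (leptin+) and lower in Skeletal Muscle. It was at 117 CPM at 24hpa and 18.8 CPM uninjured in ROC (2.63). In Notochord and in the cells labelled Myotome it stayed under 2-fold, at 36.8 and 30.7 CPM and at 30.3 and 60.5 CPM. It was at 2.11 CPM at 24hpa and 33.6 CPM uninjured in Skeletal Muscle, from 3 and 136 UMIs.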

How the data were processed

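Single cell RNA-Seq counts of both libraries were used as deposited: the authors made raw UMI counts per gene and barcode with Cell Ranger, and cell tables with clusters in Seurat after integrating the libraries. Of the columns of these tables, 26 were not used. The files carry Xetrov9 gene names, and the build behind the counts was not settled, so no coordinates are given; 52 of 57 matched names occurred in the RefSeq table used here. Reads and sequences were not analysed here.

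Counts were summed per cluster and library. CPM has exact Poisson intervals and the log2 ratio an exact conditional interval (Python 3.11.15, scipy 1.17.1). A gene was called with at least 30 UMIs over both libraries, a ratio of at least 2-fold and an interval excluding 0; 3 UMIs replaced a 0. Shares have Clopper-Pearson intervals. All genes went through the same rule. The functions were tested on simulated data. The members, the pathway list and the marker lists were chosen with earlier results of these data known. Genes with at least 100 UMIs, preset ligands, antagonists and Id genes, and genes past 2-fold in a cluster could be named. Alternatives were TMM factors (edgeR 4.0.16), other minimum counts, cells with at least 1000 genes, leaving out possible doublets (cells above 3 times the median UMIs of their cluster and library), mean CPM per cell, subtracting free RNA, weighting clusters and thinning cells. Leaving out the cell with most UMIs of a gene, and the free RNA window of 100 to 500 UMIs, were chosen after seeing the data.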

Additional observations from a re-analysis of the deposited data

Results flagged for a closer look

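For 9 genes the log2 ratio of 24hpa over uninjured passed 2-fold upwards in 1 cluster and downwards in another. With 1 library per group these differences between clusters were not tested. The values are the highest and the lowest of each gene among such clusters with UMIs in both libraries.

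Among ligands, inhba was at 4.88 in Notochord and -1.35 in satellite cells and differentiating myotome, tgfb2 at 1.32 in spinal cord progenitors and -5.39 in Skeletal Muscle, and bmp6 at 1.23 in Notochord and -2.83 in the cells labelled Myotome. Bmp4 and bmp7.1 shared their clusters: bmp4 was at 1.85 and bmp7.1 at 1.26 in Bipotent Progenitor, and they were at -2.31 and -1.74 in ROC. Among antagonists, nog was at 1.05 in Mesenchyme and -2.46 in the cells labelled Myotome, and fstl3 at 2.21 in Mesenchyme and -2.28 in Skeletal Muscle. In Dermomyotome fstl3 had 0 UMIs at 24hpa, so that its log2 ratio was -4.24 or lower. The receptor gene acvr2b was at 1.88 in Motor Neuron (leptin+) and -1.58 in spinal cord progenitors, and smad9 at 1.70 in Notochord and -1.62 in the cells labelled Dermomyotome. The ratios of tgfb2 in Skeletal Muscle and of acvr2b in Motor Neuron (leptin+) rested on 1 UMI at 24hpa and 3 UMIs uninjured. With TMM scaling nog in Mesenchyme was at 0.96. The interval of bmp4 in Bipotent Progenitor reached 0 without possible doublets (1.11). That of smad9 in Dermomyotome did so with TMM scaling (-1.18) and without possible doublets (-1.26). Each was the only call of its gene in that direction.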

How the results depend on the processing

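Over all cells the count of pathway genes past 2-fold was 8 and stayed between 7 and 9 under each alternative. Weighting clusters to the uninjured makeup gave 3 higher and 4 lower genes in place of 6 and 2, 4 of the 8 were kept, and tgfbr3 and tgfb1 reversed to -0.34 and -0.20. Mean CPM per cell gave 8 higher and 1 lower. In neural cells the count was 6. It was 3 with a minimum of 100 UMIs, which tests fewer genes, and also 3 when leptin+ motor neurons were left out, where id4 was at -0.79, bmp2 at -0.90 and nog2 at -0.78. Mean CPM per cell gave 2 higher and 7 lower there.

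Within clusters 79 ratios were past 2-fold, and none reversed. Of these calls 23 were lost in at least 1 alternative, 16 of them by a ratio under 2-fold and the others by an interval that reached 0. A further 22 pairs of gene and cluster were called in at least 1 alternative only. TMM scaling lost 11 calls and added 5. Mean CPM per cell and the subtraction of free RNA have no interval, so that the ratio alone made the call there. The log2 shifts of TMM, which were subtracted from the log2 ratios, lay between -0.44 and 0.27. The highest cluster of a gene was kept in 54 of 70 cases with mean CPM per cell and in 70 with free RNA subtracted. The amount subtracted was small beside the median depth of cells, so the latter count says little about free RNA. The share of positive cells over all cells was higher at 24hpa for 24 of 35 genes, for 17 with cells thinned to 2600 UMIs and for 16 at 5000. Ratios resting on few UMIs limit what these libraries show. No paired analysis was possible because each group is 1 library and no test was made.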

Other observations

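The free RNA of pathway genes was higher at 24hpa for some and lower for others. In barcodes not called as cells, fstl1 was at 327 CPM at 24hpa and 175 CPM uninjured, tgfb1 at 55.7 and 33.4 CPM, id4 at 59.5 and 144 CPM, and id3 at 178 and 177 CPM.

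Further genes of the pathway list were past 2-fold in clusters not described above. In Motor Neuron (leptin+) skil, a Smad corepressor and feedback target, had 48 UMIs at 24hpa and 1 uninjured (log2 ratio 4.19). Pmepa1 had 49 and 1 there (4.22). This cluster summed to 691186 UMIs at 24hpa and 263289 uninjured, and 18.1% of all its genes were higher past 2-fold. Rgma, a BMP co-receptor, was at 55.0 CPM at 24hpa and 11.4 CPM uninjured there (2.27). Htra1 was also higher in Vulnerable Motor Neuron, at 61.3 CPM at 24hpa and 4.34 CPM uninjured (3.82). In Notochord ctgf was at 576 CPM at 24hpa and 2363 CPM uninjured (-2.04), and dcn, the matrix proteoglycan decorin, at 94.0 and 11.8 CPM (3.00). In the cells labelled Myotome dcn was at 111 CPM at 24hpa and 2.88 CPM uninjured, from 356 and 2 UMIs (5.27). Sostdc1, a BMP antagonist gene, had 74 UMIs at 24hpa (23.1 CPM) and 0 uninjured in that cluster. The cluster summed to 3204136 UMIs at 24hpa and 694288 uninjured.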
